A study of Rattus norvegicus with 23 samples.

Results

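The miRNAs described here are 7 that circulating and tissue leukocytes carry: rno-miR-150, rno-miR-342-3p, rno-miR-342-5p, rno-miR-223, rno-miR-142-3p, rno-miR-142-5p and rno-miR-146a (the prefix for rat is left out below). They were taken by name from the 350 rat miRNAs on the array. All 7 were among the 199 miRNAs tested, a miRNA being tested where 7 or more arrays detected its probe. They were followed in mammary tissue of female Sprague-Dawley rats, in 7 samples of normal gland and in carcinomas that arose spontaneously (8) or were induced by radiation (8), each on 1 Agilent array of 1 colour (Cy3). Strain and sex are the same in every group. The type and dose of radiation and the ages of the animals are not given in the sources used here. Each carcinoma carries the code of another animal. The labels leave unsaid whether each normal tissue is from its own animal, and tests against normal tissue may in part reflect technical variation. The study set the radiation-induced carcinomas against the spontaneous ones and against normal tissue.

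MicroRNAs are short RNAs that guide Argonaute proteins to messenger RNAs, mostly through a seed near the 5′ end, and so lower the output of those messengers. Several are made mainly in blood cells. miR-150 is abundant in mature lymphocytes and restrains the transcription factor Myb, and miR-342 is also found in lymphocytes. miR-223 marks granulocytes and monocytes, both arms of miR-142 are found throughout the haematopoietic lineage, and miR-146a is induced by inflammatory signalling through NF-kappaB and dampens it by targeting Traf6 and Irak1. In whole tissue the level of such a miRNA follows both how many leukocytes are present and how much each contains, and fewer cells of a type cannot be told apart from less RNA per cell in these bulk samples.

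The mature sequences are shown because they set which probes and targets the members could share. They come from RefSeq (GRCr8), where 6 of the 7 members matched, and the capitals mark the seed (bases 2 to 8).
miR-342-3p: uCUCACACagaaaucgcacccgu
miR-342-5p: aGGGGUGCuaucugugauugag
miR-223: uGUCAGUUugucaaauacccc
miR-142-3p: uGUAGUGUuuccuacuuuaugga
miR-142-5p: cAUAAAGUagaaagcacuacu
miR-146a: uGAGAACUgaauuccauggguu
miR-146b: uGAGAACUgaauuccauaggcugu
The 6 matched members have 6 different seeds, so none is a seed relative of another. miR-146b, which is no member, is printed because it shares the seed of miR-146a. Over the first 22 positions, counted from the 5′ end, these differ at 2 (G18A and U21C, with the base of miR-146a first). The miR-142 hairpin lies at chr10:73055104-73055190 on the plus strand within the span of Tspoap1, and the miR-342 hairpin at chr6:133329655-133329753 on the plus strand within the span of Evl. The miR-146a hairpin lies at chr10:28349996-28350090 on the minus strand and the miR-223 hairpin at chrX:65151383-65151492 on the plus strand.

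Levels are log2 of the background-subtracted spot intensity after each array was scaled to a common 75th percentile, with a floor at 3.30, and levels of different miRNAs are not compared because their probes differ. Before scaling, that percentile ran from 335 to 936 on spontaneous, from 729 to 2032 on radiation-induced and from 960 to 2494 on normal arrays, so the spontaneous arrays were all dimmer than the normal ones. The number of arrays limits the precision. Of the spontaneous carcinomas, 3 carry animal codes starting with M, as all radiation-induced ones do, and 5 carry codes starting with K. The arrays lie on 4 slides, and slide 4 alone holds all 3 groups. In spontaneous carcinoma 1 and radiation-induced carcinoma 3 the epithelial miR-200 family was at the floor in all its 5 members, so these samples go against a label of carcinoma by that marker. Some of the values that move with spontaneous carcinoma 1 are also given without it.

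Against normal tissue, the lymphocyte miRNA miR-150 was lower in both kinds of carcinoma, and the myeloid miR-223 and the inflammation-induced miR-146a were lower in the spontaneous ones. Both arms of miR-142 and both arms of miR-342 did not pass the test in either comparison. In limma over all 199 miRNAs, with Benjamini-Hochberg adjusted p under 0.05 as the threshold, 3 of the 7 members fell and 0 rose in spontaneous carcinomas. In that comparison 14.6% of all tested miRNAs fell, and 40.7% passed in either direction. In radiation-induced carcinomas 1 of the 7 fell and 0 rose, where 8.54% of all fell and 25.1% passed in either direction. The median difference over the members was -0.44 on the log2 scale for spontaneous and -0.20 for radiation-induced carcinomas, beside 0.23 and 0.14 over all tested miRNAs. The spontaneous median rests on spontaneous carcinoma 1: without it the median was -0.016 over the members and 0.25 over all. Both comparisons use the same 7 normal arrays, so their calls are not independent.

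miR-150, the member most closely tied to lymphocytes, had a level of 8.18 at the lowest, 8.68 at the median and 8.87 at the highest in normal tissue. In spontaneous carcinomas these values were 3.55, 6.73 and 8.20, and in radiation-induced ones 6.03, 6.85 and 9.10. Normal tissues thus lay close together, 7 of 8 spontaneous carcinomas lay below all of them, and the remaining one just reached their range. Of the radiation-induced carcinomas 7 of 8 lay below all normal tissues, while radiation-induced carcinoma 4 lay above all of them. The mean fell from 8.59 ± 0.24 in normal tissue (SD, n = 7) to 6.42 ± 1.48 in spontaneous (SD, n = 8) and 7.00 ± 1.01 in radiation-induced carcinomas (SD, n = 8). This was 4.49-fold lower in spontaneous carcinomas (log2 -2.17 ± 0.53, SE, limma adjusted p = 0.00261) and 3.02-fold lower in radiation-induced ones (log2 -1.59 ± 0.53, SE, limma adjusted p = 0.0333). With slide as a block the differences were -2.24 and -1.89, and both passed (limma adjusted p = 0.00334 and 0.0441). Single slides hold only 1 or 2 normal arrays, so their values are given with no test. The spontaneous difference was -4.23, -1.88 and -1.31 on slides 1, 2 and 4 (2, 3 and 3 carcinomas), and the radiation-induced one was -1.09 and -1.87 on slides 3 and 4 (5 and 3 carcinomas). With both carcinomas lacking miR-200 left out, miR-150 was at -1.76 and -1.58. The spontaneous call was lost with array brightness as a covariate (-2.02, limma adjusted p = 0.209) and with the 3 M-coded spontaneous carcinomas alone (-1.37, limma adjusted p = 0.0582). The radiation-induced call was lost with the brightness covariate (-1.55, limma adjusted p = 0.0702), with no filter on dim miRNAs (limma adjusted p = 0.0713) and in 8 of the 23 fits that left out 1 array, namely without radiation-induced 1, 5 or 6 or normal 1, 2, 3, 4 or 7 (-1.60 to -1.46).

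miR-342, which is also found in lymphocytes, did not follow miR-150. Whether its signal in these tissues came from lymphocytes was not tested. The level of the arm miR-342-3p was 6.01 at the lowest, 6.69 at the median and 6.90 at the highest in normal tissue. In spontaneous carcinomas it was 6.40, 7.06 and 7.82, and in radiation-induced ones 6.62, 6.96 and 8.08. All 8 radiation-induced carcinomas lay above the normal mean and 5 above every normal tissue, and among the spontaneous ones 6 lay above the mean and 5 above every normal tissue, so the groups overlap. The differences were 0.44 ± 0.23 for spontaneous (SE, limma adjusted p = 0.128, 95% interval -0.036 to 0.92) and 0.45 ± 0.23 for radiation-induced carcinomas (SE, limma adjusted p = 0.157, 95% interval -0.028 to 0.93). The spontaneous difference turned with the scaling, to -0.021 with the percentile over all probes, -0.0046 with quantile normalization, -0.91 unscaled and -0.85 in the deposited table. It passed as lower in the last 2 of these (limma adjusted p = 0.0139 and 0.0194) and as higher at 0.70 with normexp background correction (limma adjusted p = 0.00108). The median over all miRNAs turned with it, from 0.23 to -0.14, -0.042, -0.98, -1.03 and 0.74. The opposite arm, miR-342-5p, sat at or near the floor of 3.30, with highest levels of 3.50 in normal tissue, 4.11 in spontaneous and 4.58 in radiation-induced carcinomas. It was well above background on 4 of 7, 1 of 8 and 3 of 8 arrays, its other 3 probes were so on 0 arrays, and its differences of 0.20 and 0.18 did not pass (limma adjusted p = 0.406 and 0.531).

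miR-223, the granulocyte and monocyte miRNA, had levels of 9.28, 9.84 and 10.44 (lowest, median and highest) in normal tissue. It had 6.48, 8.82 and 10.04 in spontaneous and 7.70, 8.75 and 9.58 in radiation-induced carcinomas. Of the spontaneous carcinomas 6 of 8, and of the radiation-induced ones 5 of 8, lay below every normal tissue, and no carcinoma lay above the highest normal tissue. miR-223 was 2.55-fold lower in spontaneous carcinomas (log2 -1.35 ± 0.43, SE, limma adjusted p = 0.0148, below the normal mean in 7 of 8). In radiation-induced carcinomas it was at log2 -1.14 ± 0.43 (SE, below the normal mean in 8 of 8) and just missed the threshold (limma adjusted p = 0.0516). The radiation-induced difference passed in 5 of 23 fits that left out 1 array (spontaneous 1, 2, 3 or 8 or radiation-induced 3) and in 9 of 17 alternatives, among them slide as a block (-1.46, limma adjusted p = 0.0446) and the fit on these 2 groups alone (limma adjusted p = 0.00812). The spontaneous difference did not pass with the 3 M-coded carcinomas alone (-0.73, limma adjusted p = 0.189) or with the brightness covariate (limma adjusted p = 0.274). Without spontaneous carcinoma 1 it was -1.06 (limma adjusted p = 0.0228). Within slides it was -3.02, -0.82 and -0.66 on slides 1, 2 and 4, and the radiation-induced difference was -1.19 and -1.11 on slides 3 and 4.

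**Figure D1:**
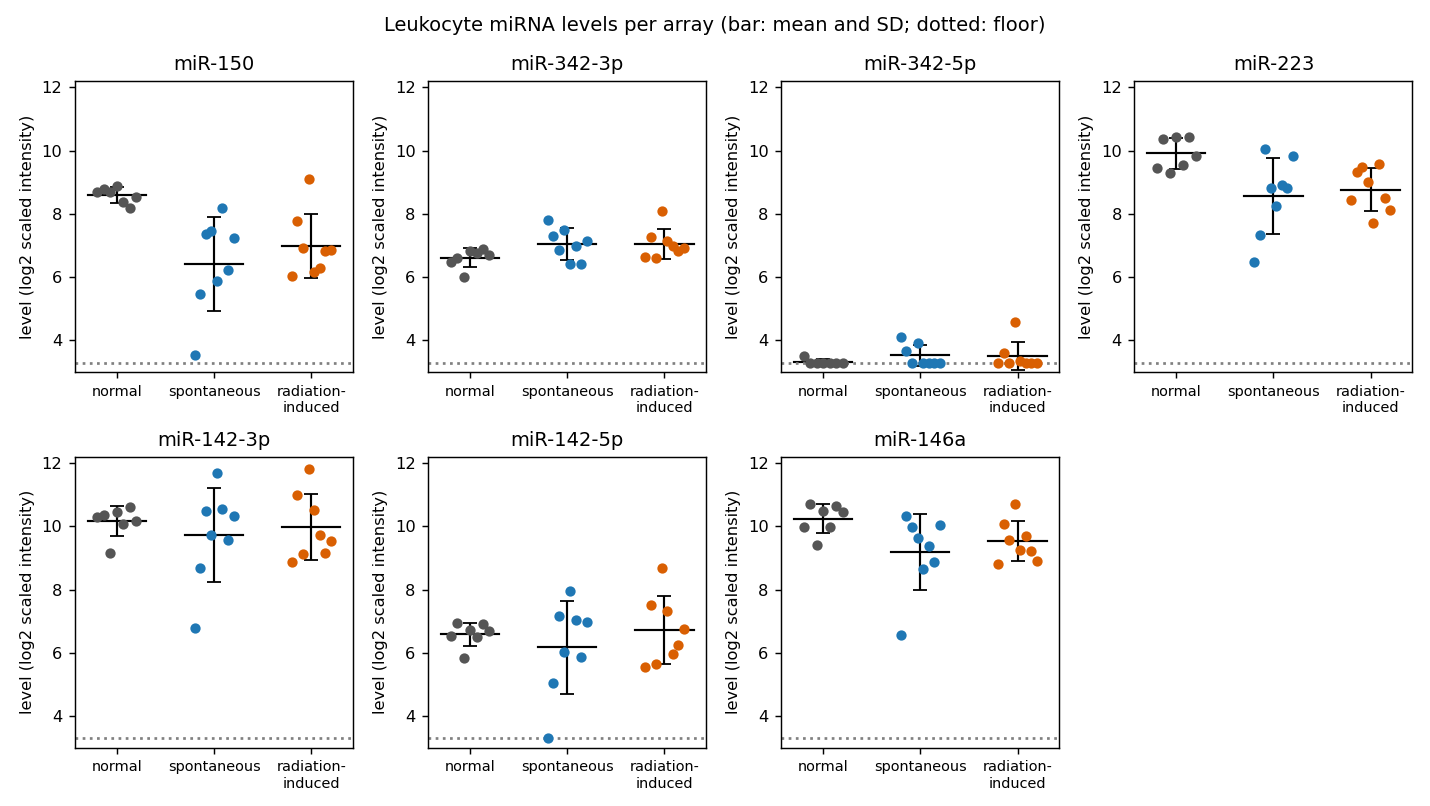
Level of each leukocyte miRNA on every array, as log2 of the scaled intensity, in normal tissue (n = 7), spontaneous carcinomas (n = 8) and radiation-induced carcinomas (n = 8). Points are arrays, bars the mean and SD, and the dotted line the floor of 3.30. miR-150 is tight in normal tissue, between 8.18 and 8.87, and lower in all but 1 carcinoma of each kind, while miR-342-3p overlaps between the groups.

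Both arms of miR-142, shared by all leukocytes, differed far more among the carcinomas than between tissues. miR-142-3p had levels of 9.16, 10.31 and 10.63 (lowest, median and highest) in normal tissue. In spontaneous carcinomas it ran from 6.78 through a median of 10.03 to 11.70, and in radiation-induced ones from 8.86 through 9.63 to 11.81. Some carcinomas of each kind lay above all normal tissues and some below all of them, so the carcinoma ranges enclosed the normal range. The differences from normal tissue were -0.44 ± 0.54 for spontaneous (SE, limma adjusted p = 0.56, 95% interval -1.57 to 0.69) and -0.20 ± 0.54 for radiation-induced carcinomas (SE, limma adjusted p = 0.836, 95% interval -1.32 to 0.93). miR-142-5p gave -0.42 ± 0.54 and 0.13 ± 0.54 (SE, limma adjusted p = 0.575 and 0.886), with medians of 6.68 in normal tissue, 6.49 in spontaneous and 6.50 in radiation-induced carcinomas. Spontaneous carcinoma 1 carried the spontaneous differences, which were -0.016 for miR-142-3p and -0.0088 for miR-142-5p without it (limma adjusted p = 0.981 and 0.99). The intervals are wide enough to hold changes of over 1 on the log2 scale, so these data do not show that the level of miR-142 was the same in the 3 tissues. Unscaled and in the deposited table both arms fell in spontaneous carcinomas, where the median over all miRNAs was also at -0.98 and -1.03.

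miR-146a, the inducible member, had levels of 9.42, 10.46 and 10.71 (lowest, median and highest) in normal tissue. It had 6.57, 9.51 and 10.32 in spontaneous and 8.80, 9.41 and 10.72 in radiation-induced carcinomas. Within each kind of carcinoma 4 of 8 lay below every normal tissue, and the rest lay in the normal range, save 1 radiation-induced carcinoma just above it. It was 2.09-fold lower in spontaneous carcinomas (log2 -1.06 ± 0.42, SE, limma adjusted p = 0.047, below the normal mean in 7 of 8) and did not pass in radiation-induced ones (log2 -0.71 ± 0.42, SE, limma adjusted p = 0.227, below in 7 of 8). The spontaneous call is close to the threshold: it held in 8 of 23 fits that left out 1 array and in 7 of 19 alternatives, and without spontaneous carcinoma 1 it was -0.69 (limma adjusted p = 0.0698). With slide as a block it was -1.02 (limma adjusted p = 0.0851), and within slides 1, 2 and 4 it was -1.90, -0.53 and -1.03. Its seed relative miR-146b, another NF-kappaB-responsive miRNA, had levels of 8.51, 9.45 and 9.96 in normal tissue. In spontaneous carcinomas miR-146b had 5.34, 10.16 and 11.85, and in radiation-induced ones 9.09, 9.92 and 11.03. The miR-146b differences of 0.38 and 0.55 did not pass (limma adjusted p = 0.662 and 0.561), and their difference from those of miR-146a was not tested.

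Between the kinds of carcinoma the leukocyte miRNAs were not distinguished. In limma 0 of 7 members passed (0 at an unadjusted p under 0.05), where 18.1% of all tested miRNAs passed in either direction. That share depended on the fit. It came from 36 miRNAs, beside 7 with slide as a block and 0 with the 2 groups alone or the brightness covariate. The median difference, radiation-induced minus spontaneous, was 0.24 over the members and -0.025 over all. miR-150 differed by 0.57 ± 0.51 (SE, limma adjusted p = 0.445, 95% interval -0.48 to 1.63) and miR-223 by 0.21 ± 0.41 (SE, limma adjusted p = 0.789, 95% interval -0.64 to 1.07). miR-342-3p differed by 0.0076 ± 0.22 (SE, limma adjusted p = 0.993, 95% interval -0.45 to 0.47). The group means of miR-150 fell from normal tissue through radiation-induced to spontaneous carcinomas. The first step passed the test and the last did not. Without spontaneous carcinoma 1, spontaneous carcinomas were at -1.76 against normal tissue, beside -1.59 for radiation-induced ones, so most of the last step came from that sample. With 1 array left out the difference between the carcinomas ran from 0.16 to 0.83, and it kept its direction in 13 of 16 alternatives. The call for the first step held in 15 of 23 fits that left out 1 array, and radiation-induced carcinoma 4 lay above all normal tissues. With no scaling or in the deposited table, 5 members were higher in radiation-induced carcinomas, where 49.7% of all miRNAs passed and the median over all was at 0.81 and 0.83. On slide 4, which holds 3 of each kind, miR-150 was at -0.56 (limma adjusted p = 0.66).

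**Figure D2:**
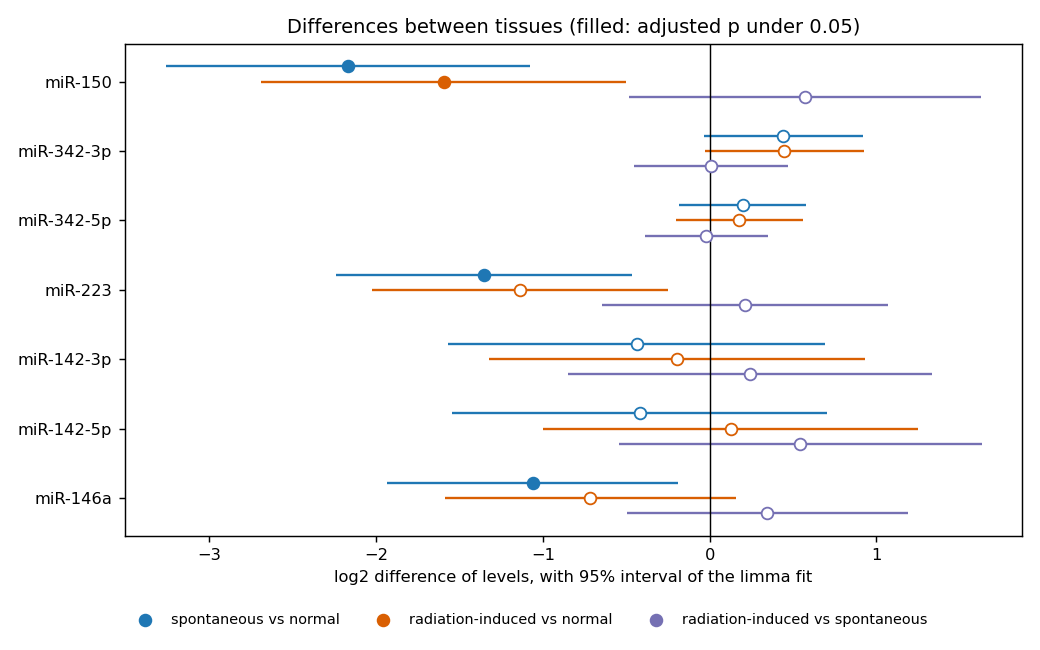
Log2 difference of each member between tissues (x axis), with the 95% interval of the limma fit as a line. Filled points passed the threshold. miR-150 passed against normal tissue for both kinds of carcinoma (-2.17 and -1.59), miR-223 and miR-146a for spontaneous carcinomas (-1.35 and -1.06), and no member passed between the carcinomas.

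Whether lymphoid and myeloid members moved apart was tested on differences within an array, which do not depend on how arrays are scaled between each other. The members listed as lymphoid gave no single answer: miR-150 did not pass against miR-223 in either kind of carcinoma, while miR-342-3p rose against it in both. The log2 intensity of miR-150 minus that of miR-223 had values of -2.26, -1.31 and -0.60 (lowest, median and highest) in normal tissue. It had -2.93, -2.48 and -0.70 in spontaneous and -3.29, -1.62 and 0.11 in radiation-induced carcinomas. The carcinoma ranges covered most of the normal range. The change against normal tissue was -0.82 ± 0.47 in spontaneous (SE, limma adjusted p = 0.115, 95% interval -1.77 to 0.14) and -0.46 ± 0.47 in radiation-induced carcinomas (SE, limma adjusted p = 0.376, 95% interval -1.41 to 0.50). A fall of miR-150 beyond that of miR-223 was thus not shown.

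miR-342-3p minus miR-223 had values of -3.77, -3.26 and -2.77 in normal tissue. It had -3.18, -1.86 and 1.34 in spontaneous and -2.88, -1.75 and -0.54 in radiation-induced carcinomas. In each kind of carcinoma 7 of 8 lay above every normal tissue, and the remaining one lay within their range. miR-342-3p rose against miR-223 by 1.79 ± 0.54 in spontaneous (SE, limma adjusted p = 0.00628) and 1.59 ± 0.54 in radiation-induced carcinomas (SE, limma adjusted p = 0.0182), above the normal mean in 8 of 8 of each. With 1 array left out the spontaneous rise ran from 1.39 to 2.03. Of the 6 other members, 2 passed as higher against miR-223 in spontaneous carcinomas (miR-342-3p and miR-342-5p), where 69.7% of 198 miRNAs rose. In radiation-induced carcinomas 3 did (both miR-342 arms and miR-142-5p at 1.26, limma adjusted p = 0.0439), where 53.5% of all rose. Since miR-342-5p was at the floor on 16 of 23 arrays, its difference to miR-223 mostly restates the level of miR-223 and shows no rise of miR-342-5p. The miR-142-5p call held in 13 of 23 fits that left out 1 array, and was lost without radiation-induced 2, 4, 5, 7 or 8 or normal 2, 3, 4, 6 or 7 (limma adjusted p up to 0.107). The counts without miR-342-5p are 1 and 2 of 5, and a rise against miR-223 was the common case among all miRNAs. Between the carcinomas 0 of 6 passed, as did 0% of all.

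Since the members listed as lymphoid differed from each other, miR-150 was also set against miR-342-3p. This pair was chosen because its members had been seen to differ, so the values are a description, with no test. The within-array difference was 1.27, 2.04 and 2.67 (lowest, median and highest) in normal tissue, -4.27, -0.11 and 1.21 in spontaneous and -0.98, -0.025 and 1.02 in radiation-induced carcinomas. All 8 spontaneous and all 8 radiation-induced carcinomas lay below every normal tissue, by a narrow margin for the highest spontaneous one. The mean was lower than in normal tissue by 2.61 on the log2 scale in spontaneous and 2.04 in radiation-induced carcinomas. With 1 array left out the spontaneous difference ran from -2.87 to -2.09. For miR-146a against miR-342-3p the differences were -1.50 and -1.16, also with all carcinomas below every normal tissue. How many of all miRNAs lay wholly below normal tissue against miR-342-3p was not counted. The separation is thus not shown to be particular to these members.

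Against miR-142-3p, the member common to all leukocytes, miR-150 was lower than the normal mean in 8 of 8 carcinomas of each kind. Its within-array difference to miR-142-3p was -2.45, -1.62 and -0.48 (lowest, median and highest) in normal tissue, -5.83, -3.16 and -2.28 in spontaneous and -4.35, -2.77 and -2.21 in radiation-induced carcinomas. In each kind 6 of 8 lay below every normal tissue, and the others overlapped with the lowest normal values. The change was -1.73 ± 0.53 in spontaneous (SE, limma adjusted p = 0.0385) and -1.40 ± 0.53 in radiation-induced carcinomas (SE, limma adjusted p = 0.22). Thus 1 of 6 members fell in spontaneous carcinomas, where 1.01% of 198 miRNAs fell, and 0 of 6 in radiation-induced ones, where 0% of all passed (limma, miR-150 at an unadjusted p of 0.0122). The spontaneous call held in 13 of 23 fits that left out 1 array, with values from -1.88 to -1.37, and was lost without spontaneous 2, 4 or 7 or any 1 normal tissue. miR-223 against miR-142-3p gave -0.92 and -0.94 (limma adjusted p = 0.299 and 0.505).

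**Figure D3:**
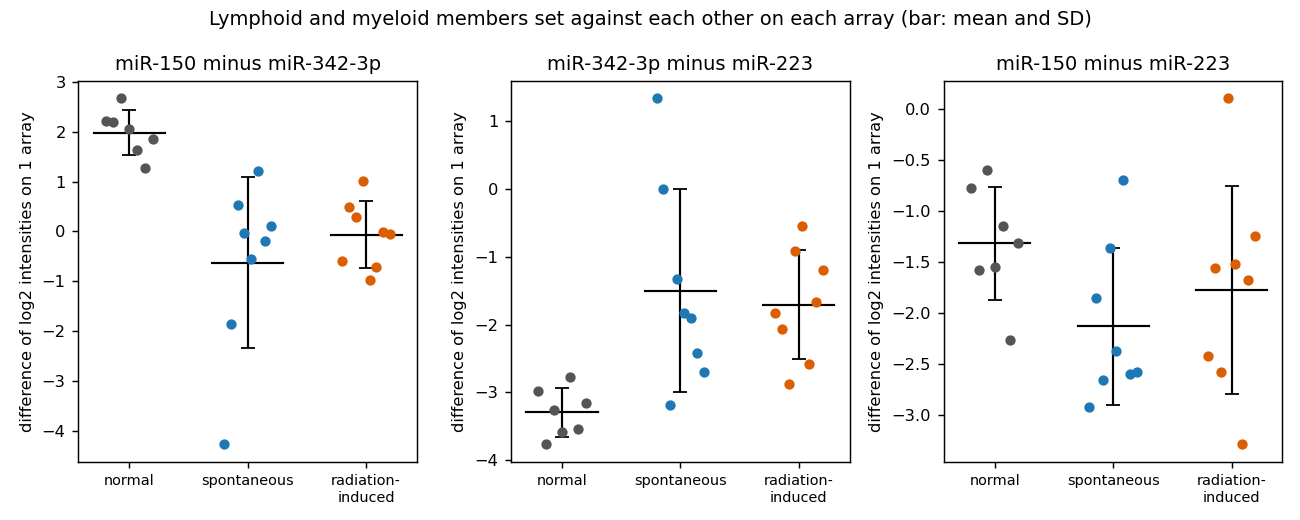
Differences of log2 intensity on the same array for miR-150 minus miR-342-3p, miR-342-3p minus miR-223 and miR-150 minus miR-223, in the 3 tissues. Points are arrays, bars the mean and SD. In the left panel, whose pair was chosen after seeing the data, every carcinoma lies below every normal tissue (at most 1.21 against at least 1.27). In the right panel the tissues overlap.

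The leukocyte miRNAs varied more among carcinomas than among normal tissues, and so did the tested miRNAs in general. The SD of miR-150 was 0.24 in normal tissue, 1.01 in radiation-induced and 1.48 in spontaneous carcinomas, and that of miR-142-3p was 0.48, 1.04 and 1.48. Over all tested miRNAs the median SD was 0.30, 0.49 and 0.74 in the same order. miR-342-3p was less variable, at 0.30, 0.47 and 0.50. miR-142-3p ran over a 30.2-fold range in spontaneous and a 7.74-fold range in radiation-induced carcinomas, against 2.77-fold in normal tissue. Without spontaneous carcinoma 1 the spontaneous SD was 0.99 for miR-150, 0.95 for miR-142-3p, 0.92 for miR-223, 0.62 for miR-146a and 0.42 for miR-342-3p. The median over all tested miRNAs was then 0.51. The range of miR-142-3p without that sample was 8.15-fold, near that of the radiation-induced carcinomas.

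Members were next compared array by array after the group means had been removed, over 8 pairs and 23 arrays. The arms of miR-142 went together closely. miR-142-3p and miR-142-5p correlated at r = 0.98 (rho = 0.97, adjusted permutation p = 8e-05 for each, from the smallest p of 1e-05 that the permutations can give), and at 0.96 without the 2 arrays farthest from the median. miR-342-3p and miR-342-5p correlated at r = 0.81 (rho = 0.72, adjusted permutation p = 0.00048 and 0.00136), and at 0.61 without the 2 farthest arrays (adjusted permutation p = 0.0265). Since miR-342-5p was at the floor on 16 of 23 arrays, its correlation rests on the few arrays above the floor. With slide means removed as well, r was 0.96 for the arms of miR-142 and 0.80 for those of miR-342.

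The lymphoid miR-150 correlated with the myeloid and common members over all arrays, though these relations rest on few arrays. miR-150 correlated with miR-142-3p at r = 0.71 (rho = 0.58, adjusted permutation p = 0.00949 and 0.0238) and with miR-223 at r = 0.66 (rho = 0.52, adjusted permutation p = 0.00949 and 0.0317). miR-150 with miR-342-3p gave r = 0.095 (rho = 0.14, adjusted permutation p = 0.717 and 0.566). Without the 2 farthest arrays the values were 0.39, 0.56 and 0.22 (adjusted permutation p = 0.285, 0.0616 and 0.432), and none of the 3 passed by r or by rho. With slide means removed they were 0.51, 0.39 and 0.61 (adjusted permutation p = 0.168, 0.168 and 0.0826). Without the 2 carcinomas lacking miR-200 they were 0.51, 0.49 and 0.54, and of these only miR-150 with miR-223 passed, by rho alone (0.55, adjusted permutation p = 0.0429). The difference between these correlations was not tested.

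miR-146a correlated with miR-223 at r = 0.66 (rho = 0.57, adjusted permutation p = 0.00949 and 0.0238) and with miR-142-3p at r = 0.63 (rho = 0.52, adjusted permutation p = 0.0193 and 0.0317). miR-223 correlated with miR-142-3p at r = 0.55 (rho = 0.44, adjusted permutation p = 0.0347 and 0.0705). Without the 2 farthest arrays r was 0.48, 0.22 and 0.22, and none passed by r, while miR-146a with miR-223 passed by rho (0.54, adjusted permutation p = 0.0256). With slide means removed r was 0.65, 0.58 and 0.16, and only miR-146a with miR-223 passed (adjusted permutation p = 0.0054).

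**Figure D4:**
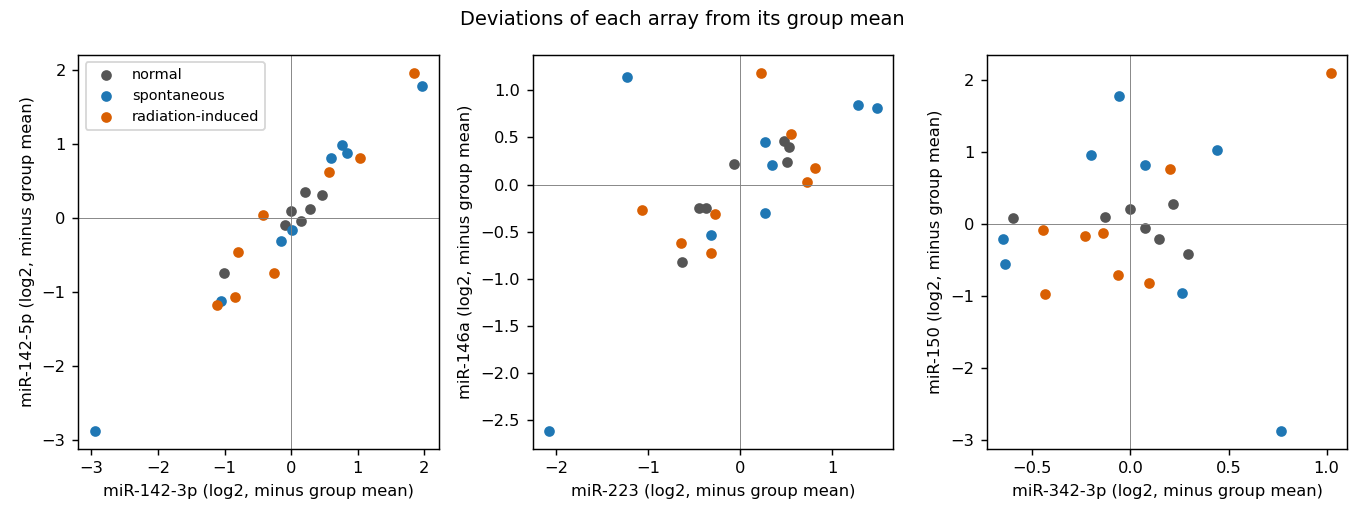
Deviation of each array from its group mean (log2) for miR-142-5p against miR-142-3p, miR-146a against miR-223 and miR-150 against miR-342-3p, coloured by tissue. The arms of miR-142 lie on a line (r = 0.98), and spontaneous carcinoma 1 is the lowest point in each panel.

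Single carcinomas stood out in these plots. In spontaneous carcinoma 1, which lacks miR-200, 5 members had the lowest level of their group: miR-150 at 3.55, miR-142-5p at the floor of 3.30, miR-142-3p at 6.78, miR-146a at 6.57 and miR-223 at 6.48. In the same sample miR-342-3p at 7.82 and miR-342-5p at 4.11 were the highest of their group. The other carcinoma without miR-200, radiation-induced 3, did not stand apart in this way: miR-223 at 9.49 ranked 7 of 8 from the lowest, miR-150 at 6.91 ranked 6 of 8 and miR-342-3p at 6.62 was the lowest. Radiation-induced carcinoma 4 had the highest level of its group for miR-150 (9.10), miR-142-3p (11.81), miR-142-5p (8.68), miR-146a (10.72), miR-342-3p (8.08) and miR-342-5p (4.58), but not for miR-223 (8.99). Spontaneous carcinoma 5 had the highest miR-142-3p of its group at 11.70 with miR-150 at 5.86 and miR-223 at 8.24.

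As a description, the miRNAs outside the 7 whose deviations from the group means were most like each member were ranked by r over the same 23 arrays and 192 miRNAs. For miR-142-3p they were miR-21 (0.85), miR-185 (0.78) and miR-24-2* (0.72), beside a median r of 0.054 over all 192. For miR-142-5p they were miR-21 (0.80), miR-185 (0.76) and miR-32 (0.67). miR-146a was closest to miR-185 (0.67), miR-21 (0.67) and miR-23a (0.66), and miR-150 to miR-23a (0.74), miR-185 (0.68) and miR-24-2* (0.68). The neighbours of miR-223 were miR-22 (0.75), miR-23a (0.73) and miR-27a (0.69). Those of miR-342-3p were other miRNAs, miR-7a (0.63), miR-333 (0.62) and miR-15b (0.60). Those of miR-342-5p, which was mostly at the floor, were miR-333 (0.70), miR-363 (0.61) and miR-7a (0.57).

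Among 13 further miRNAs known from immune cells or inflammation, 12 were on the array (miR-155 was not analysed here) and 11 were tested, since miR-147 was not well above background on any array. In radiation-induced carcinomas 3 of the 11 rose and 0 fell against normal tissue in limma, where 16.6% of all tested miRNAs rose and 8.54% fell. These were miR-181d (log2 1.33, adjusted p = 0.0082), miR-181c (1.23, adjusted p = 0.0082) and miR-132 (0.95, adjusted p = 0.0491), which is induced by the transcription factor CREB. In spontaneous carcinomas, where 26.1% of all rose, 2 of the 11 rose, miR-181d (log2 1.26, limma adjusted p = 0.00625) and miR-181c (0.89, limma adjusted p = 0.0283). There 2 of the 11 fell, where 14.6% of all fell: miR-23a (-0.74, limma adjusted p = 0.00625) and its cluster neighbour miR-27a (-0.58, limma adjusted p = 0.0196). The other miR-181 members on the list, miR-181a and miR-181b, passed in neither kind of carcinoma. They were at 0.078 and 0.34 in radiation-induced (limma adjusted p = 0.878 and 0.531) and at -0.016 and 0.66 in spontaneous carcinomas (limma adjusted p = 0.969 and 0.128). The list's median was 0.34 in radiation-induced and 0.13 in spontaneous carcinomas, beside 0.14 and 0.23 over all. None of the 11 passed between the carcinomas in limma, where 18.1% of all passed in either direction. There miR-132 was at 0.84 with a limma adjusted p of 0.0818 (1 of the 11 at an unadjusted p under 0.05). The summed level of the list ran from 14.37 to 15.61 in normal, from 13.38 to 15.78 in spontaneous and from 15.26 to 16.14 in radiation-induced samples. It adds linear intensities, as do the sums of the lists below, and so leans on the brightest miRNA. Here that was miR-21, with means of 14.47, 14.59 and 15.18 in the same order.

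Some markers of other cells in mammary tissue moved in the same comparisons. Of all tested miRNAs, 14.6% fell and 40.7% passed in either direction in spontaneous carcinomas, and 8.54% and 25.1% in radiation-induced ones. Between the carcinomas 18.1% of all passed in either direction. Both endothelial markers fell in both kinds of carcinoma: miR-126, which maintains vascular integrity, by 3.15-fold in spontaneous (log2 -1.65, limma adjusted p = 0.000704) and 2.40-fold in radiation-induced ones (-1.26, limma adjusted p = 0.0101). The summed endothelial level ran from 10.42 to 11.21 in normal, from 8.27 to 9.97 in spontaneous and from 8.38 to 11.42 in radiation-induced samples. Of 5 smooth muscle and fibroblast markers, 3 fell in spontaneous carcinomas (miR-199a-3p, miR-199a-5p and miR-214) and 0 in radiation-induced ones, with summed levels of 13.21 to 13.83 in normal, 11.38 to 13.21 in spontaneous and 12.54 to 14.62 in radiation-induced samples. Of these markers miR-143 and miR-145 were higher in radiation-induced than in spontaneous carcinomas (2.46-fold and 2.57-fold, limma adjusted p = 0.0367 and 0.0184), the only markers on these lists that passed between the carcinomas. Both calls were lost with the 2 groups alone and with the brightness covariate, where 0 of all miRNAs passed. Of 3 tested striated muscle markers 1 and 2 fell (miR-133a was not well above background on any array), and summed levels ran from 5.81 to 8.42, from 5.55 to 7.44 and from 5.30 to 6.41 in the same order. None of 8 epithelial markers passed, with summed levels of 12.03 to 13.61, 6.57 to 14.80 and 7.22 to 14.47, and medians of 13.09, 14.24 and 14.20. For miR-141, miR-200c and miR-429, 7 of 8 carcinomas of each kind lay above every normal tissue and 1 below all. Such counts over all miRNAs are not given here. For each of miR-200a, miR-200b and miR-203, 7 radiation-induced carcinomas lay above every normal tissue, and 5, 6 and 4 spontaneous ones. For miR-205, 5 radiation-induced and 1 spontaneous carcinoma lay above every normal tissue, and 1 and 3 lay below all. For miR-375, 0 radiation-induced and 3 spontaneous carcinomas lay above every normal tissue. With such a spread, the tests do not show that epithelial markers were alike in the 3 tissues. The part of these cells in the leukocyte results was not tested.

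Red blood cells are a measure of blood in the tissue. The erythroid miR-451 had levels of 6.22, 7.71 and 9.17 (lowest, median and highest) in normal tissue, 5.66, 7.62 and 9.37 in spontaneous and 4.75, 6.59 and 7.98 in radiation-induced carcinomas. The groups overlap widely. Its difference was -0.0091 in spontaneous (limma adjusted p = 0.987) and -1.10 in radiation-induced carcinomas (limma adjusted p = 0.155), and the other tested erythroid marker, miR-144, did not pass either. The mean of miR-451 was thus nearly equal in spontaneous carcinomas and normal tissue, though the 95% interval of its difference reached from -1.17 to 1.15. The part of blood in the leukocyte results was not tested. Summed erythroid levels ran from 6.40 to 9.29 in normal, from 5.92 to 9.53 in spontaneous and from 5.20 to 8.10 in radiation-induced samples.

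**Figure D5:**
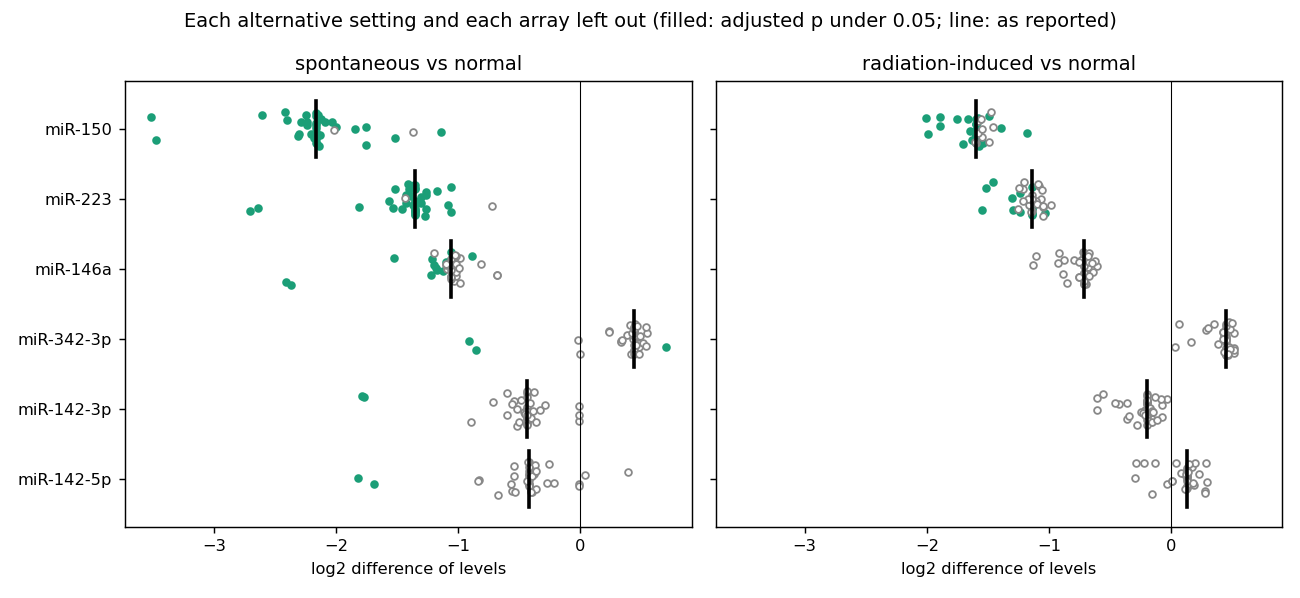
Log2 difference from normal tissue for 6 members under each alternative setting and with each array left out (points, fits within single slides not drawn), with the value as reported as a line. Filled points passed the threshold. miR-150, miR-223 and miR-146a keep their direction throughout, while miR-142-5p in both panels and miR-342-3p in spontaneous carcinomas have points on both sides of 0.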

How the data were processed

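Per the labels' protocols, total RNA came from a column kit and was given a Cy3 label at the 3′ end by ligation. Per the file headers, the authors' scanner files were made with Agilent Feature Extraction 9.5.1.1. Their spot intensities are linear, had the background of the array subtracted, and were not brought to a common scale across arrays. The values in the authors' deposited table are total gene signals, also linear intensity without normalization: all of those over the minimum of 5 (100%) matched the scanner files to within 1%. Their log2, with no centring, served as an alternative.

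From the scanner files, 953 control spots were left out, and the processed signals of the 7000 miRNA spots were averaged per probe (938 probes) over spots without an outlier mark. As only 35.7% of probe values were well above background, arrays were scaled by the 75th percentile of the 199 probes that every one of the 23 arrays detected, floored at 9.82 and log2-transformed, and the brightest probe stood for its miRNA. The floor can understate differences near it. The test was limma 3.58.1 (R 4.3.3, with the package data.table, version 1.17.8, to read files), with a mean for each group, all 23 arrays in the fit (total degrees of freedom 22.5) and Benjamini-Hochberg adjustment over all tested miRNAs. Errors of its differences are SE. Within-array differences were fitted likewise over 198 miRNAs. Correlations used 100000 permutations within groups, adjusted over 8 pairs. The fit was tested on simulated data. Pairs of arrays correlated at 0.607 to 0.993, and no array was a copy of another. The carcinomas' numbers name samples only, in the order of the deposit.

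The text names the 7 members, the 3 non-members most like each, and up to 4 members of the immune list with the smallest p, and the cell type markers were listed by type. Some other miRNAs of the immune list are named as well. The members and lists were chosen with earlier results of these data known. Alternatives covered scaling, background correction, total gene signal, the deposited table, the floor, the filter, the probes, the groups fitted, slide, brightness and the samples. The normexp alternative used median rather than mean spot signals. miRNA names are those of the array design.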

Additional observations from a re-analysis of the deposited data

Results flagged for a closer look

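Of 21 combinations of member and group, 6 held a sample whose gap to its nearest neighbour was large for the range of its group. Chance flags about 1 in 20 groups, a rate that does not cover groups with values tied at the floor, as miR-342-5p has. In normal tissue 3, miR-142-3p was at 9.16, below the next sample at 10.06, and miR-142-5p at 5.85, below the next at 6.49. The arms of miR-142 come from 1 hairpin, so these are not independent. In spontaneous carcinoma 1, miR-146a was at 6.57 and the next carcinoma at 8.65. In radiation-induced carcinoma 4, miR-342-3p was at 8.08 against 7.26 in the next, and miR-342-5p at 4.58 against 3.61. The arms of miR-342 also come from 1 hairpin. In normal tissue 1, miR-342-5p was at 3.50 and all other normal tissues were at the floor of 3.30, so a single value over the floor is flagged whatever its size.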

How the results depend on the processing

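The fall of miR-150 against normal tissue kept its direction in all 18 alternatives for spontaneous and all 16 for radiation-induced carcinomas (log2 -4.23 to -1.14 and -2.01 to -1.09) and passed in 13 and 12 of them. That of miR-223 kept it in 19 and 17 (-3.02 to -0.66 and -1.55 to -1.03) and passed in 14 and 9, and miR-150 against miR-342-3p, a pair chosen after seeing the data, kept it in 18 and 16. In all, 1573 of 1881 recomputed values kept direction and side of the threshold, or stayed within the bounds set for counts. The number of members that passed in radiation-induced carcinomas against normal tissue, 1 as reported, was 2 with the percentile over all probes, quantile normalization, no scaling, normexp, the deposited table, the 2 groups alone, slide as a block and without the 2 carcinomas lacking miR-200. It was 0 with no filter, within slides 3 and 4 and with the brightness covariate, and from 0 to 2 with 1 array left out. In spontaneous carcinomas, 3 as reported, it was 6 unscaled and in the deposited table, where 58.3% and 54.8% of all miRNAs passed, 5 with normexp, where 72.4% passed, and 0 within slides 1, 2 and 4, which hold 1 or 2 normal arrays, with the brightness covariate and with the M-coded carcinomas alone. Between the carcinomas, 0 as reported, it was 5 unscaled and in the deposited table (49.7% of all in each) and 1 with normexp (52.3% of all). Against miR-142-3p the spontaneous count of 1 was 2 in the deposited table, from 0 to 1 with 1 array left out, and 0 with quantile normalization, the raised floor, the mean of all probes, the other probe, no filter, only miRNAs detected on all arrays, the 2 groups alone, slide as a block, within slides 1, 2 and 4, the brightness covariate and the M-coded carcinomas, while the radiation-induced count of 0 was 1 with the 2 groups alone.

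Directions that turned belonged to differences that had not passed. Radiation-induced against normal, miR-142-5p was at -0.037 with the percentile over all probes, -0.13 with quantile, -0.29 unscaled, -0.30 in the deposited table, -0.22 with the slide block, -0.35 within slide 4 and from -0.16 to 0.29 with 1 array left out. miR-342-5p was at -0.031 with the total gene signal, miR-150 minus miR-223 at 0.11 within slide 3 and miR-146a minus miR-223 at -0.072 within slide 4. Spontaneous against normal, miR-342-3p was at -0.021, -0.0046, -0.91 and -0.85 with the percentile over all probes, quantile, no scaling and the deposited table. The arm miR-342-5p was at -0.038 with quantile, -0.18 unscaled, -0.082 with the total gene signal, -0.017 in the deposited table and -0.029 with the M-coded carcinomas. miR-142-5p was at 0.39 with normexp, 0.76 within slide 2 and 0.041 with the M-coded carcinomas, miR-142-3p at 0.83 within slide 2, and miR-146a minus miR-223 at -0.37 within slide 4, -0.086 with the M-coded carcinomas and from -0.048 to 0.39 with 1 array left out. Radiation-induced against spontaneous, the slide block gave -0.19 for miR-142-3p, -0.035 for miR-223 and -0.12 for miR-342-3p. Slide 4 gave -0.68 for miR-142-3p, -0.30 for miR-142-5p, -0.16 for miR-146a, -0.56 for miR-150, -0.45 for miR-223 and -0.11 for miR-150 minus miR-223. Normexp gave -0.11 for miR-142-5p, -0.042 for miR-150, -0.28 for miR-342-3p and -0.091 for miR-150 minus miR-223. The M-coded carcinomas gave -0.18 for miR-142-3p, -0.23 for miR-150, -0.41 for miR-223 and 0.21 for miR-342-5p. Without the 2 carcinomas lacking miR-200, miR-142-3p was at -0.060, miR-146a at -0.032, miR-223 at -0.19 and miR-342-5p at 0.093. For miR-342-5p the percentile over all probes gave 0.12, quantile 0.19, no scaling 0.34, the total gene signal 0.051, the authors' table of total gene signal 0.24 and the brightness covariate 0.10. For miR-342-3p the mean of all probes gave -0.0083 and the other probe -0.024, which also put miR-150 minus miR-223 at -0.056. With 1 array left out, ranges were -0.18 to 0.52 for miR-142-3p, -0.028 to 0.51 for miR-146a, -0.083 to 0.43 for miR-223, -0.14 to 0.12 for miR-342-3p and -0.17 to 0.064 for miR-342-5p.

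Correlations of miR-223 with miR-142-3p, miR-150 with miR-142-3p, miR-150 with miR-223 and miR-146a with miR-142-3p no longer passed by r without the 2 farthest arrays (0.22, 0.39, 0.56 and 0.22), without the carcinomas lacking miR-200 (0.37, 0.51, 0.49 and 0.32) and with slide means removed (0.16, 0.51, 0.39 and 0.58), nor did miR-146a with miR-223 in the former cases (0.48 and 0.43). By rho, miR-146a with miR-223 still passed in both of these (adjusted permutation p = 0.0256 and 0.0326), as did miR-150 with miR-223 without the carcinomas lacking miR-200 (0.0429). The causes were not tested. The use of only the miRNAs detected on all arrays left no value for miR-150, miR-142-5p and miR-342-5p. The other probe, the comparison with miR-342-3p and a fit without spontaneous carcinoma 1, which is also one of the single-array removals, were added after seeing the data. No paired analysis was possible because the labels number the carcinomas by animal and give no number shared between groups.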
